A study of Mus musculus with 12 samples.

Results

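The E2F transcription factors and the pocket proteins that bind them were followed here at the level of their transcripts in mouse B cell acute lymphoblastic leukemia (B-ALL) cells, with and without a GSK3β inhibitor. The 10 genes are the activators *E2f1*, *E2f2* and *E2f3*, the pocket-bound factors *E2f4* and *E2f5*, *E2f6*, the atypical factors *E2f7* and *E2f8*, and the pocket protein genes *Rb1* and *Rbl1*. They were taken by name from a table of 41444 genes, and all 10 were found in it. Pre-B cells from the bone marrow of *Ctnnb1* fl/fl mice, in which Cre can remove the β-catenin gene, were transformed in culture with a *BCR*–*ABL1* retrovirus. The cells then received a vector for ERT2 alone or for Cre-ERT2, a Cre recombinase that the tamoxifen metabolite 4-OHT activates, and the series holds 12 samples in 4 groups of 3. Only ERT2 cells were compared here. They lack Cre and keep β-catenin, although control and treated cells alike were given 1 µM 4-OHT for 2 days. The treated cells also had LY2090314, a small-molecule inhibitor of GSK3β, at 40 nM for 1 day according to the labels. A figure legend of the study names a shorter exposure.

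The deposited RNA-seq values are regularized logarithms (rlog, log2 scale), for which counts were adjusted to a common library size and weakly expressed genes were pulled to their own mean. Differences of low genes are therefore understated. The control libraries are numbered 1, 2 and 3 and the treated libraries 14-A, 14-B and 15. The library number is shared by 14-A and 14-B, and the labels do not name separate animals or cultures. A figure legend of the study gives 3 mice as biological replicates for these data. No label ties a library to a mouse, so whether 14-A and 14-B come from separate mice is not known, and the fit used no pairing by mouse. The p-values therefore measure only the spread between these samples, which may be technical. The SD of the difference between 2 libraries over genes was 0.186 for 14-A and 14-B, 0.185 to 0.239 for pairs of control libraries and 0.253 for both other treated pairs. Between the groups it was at least 0.581. As a check of the treatment label, *Axin2*, a feedback target of β-catenin, stood at 6.14, 6.36 and 6.43 in control libraries and at 8.06, 8.06 and 7.81 in treated libraries. All 11 pre-B cell markers were above the lower limit of 3, while all 6 T cell markers were at or under 0 and none of 5 stromal and 1 of 5 erythroid markers passed the limit. The summed level of the pre-B cell markers was 16.38 to 16.40 in control and 15.87 to 16.02 in treated libraries (log2 of the sum). Of the 11, 8 fell, *Dntt* and *Il7r* rose by 0.64 and 0.35, and 1 was not called. The 5 plasma cell markers summed to 11.35 to 11.47 and 12.90 to 12.94, with *Tnfrsf17* under 0 in all 6 libraries. Of the other 4, 3 rose, among them *Xbp1* by 1.39 and *Prdm1* by 4.46, and *Sdc1* fell by 1.09. The 6 myeloid markers summed to 6.09 to 6.27 and 7.40 to 7.46, with *Mpo* and *Elane* listed at 0 throughout. *Ly6g* rose by 2.96 and *Lyz2* by 0.53, while *Itgam* and *Csf1r* stayed under the lower limit in all 6 libraries. The part of these shifts in the results that follow was not tested.

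E2F factors bind the promoters of genes for DNA replication, nucleotide supply and mitosis. *E2f1*, *E2f2* and *E2f3* encode the factors best known as activators, and the retinoblastoma protein pRB, encoded by *Rb1*, holds them inactive until cyclin-dependent kinases phosphorylate it in G1. E2F4 and E2F5 work mainly as repressors with the pocket proteins p107 (*Rbl1*) and p130 (*Rbl2*). E2F6 represses without pocket proteins, in a Polycomb complex. E2F7 and E2F8 bind DNA without the DP proteins that partner the other E2F factors, and repress E2F targets late in S phase. In dividing B cell precursors this network sets the passage from G1 into S phase.

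With LY2090314, the transcripts of 6 of the 10 genes fell and 1 rose. *E2f2* fell most, by 0.93 on the log2 scale, *E2f3*, *E2f4*, *E2f6*, *E2f7* and *Rb1* fell by 0.28 to 0.77, and *E2f8* rose by 0.37. For *E2f1*, *E2f5* and *Rbl1* the difference did not pass the threshold. The 7 calls of 10 stand beside 50.1% of the 11536 genes tested (adjusted p under 0.05, limma with Benjamini-Hochberg adjustment). Of all genes, 25.3% were called lower and 24.8% higher, so the 6 falls are above and the 1 rise below what the background share would give. No test was made of these counts. The control and treated ranges did not overlap for 8 of the 10, against 58.6% of all genes. The median difference of the 10 genes was −0.35, and that of all genes tested 0.01. RNA was taken from whole cultures and scaled to library size, so fewer cells of a type and less RNA per cell cannot be told apart.

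**Figure D1:**
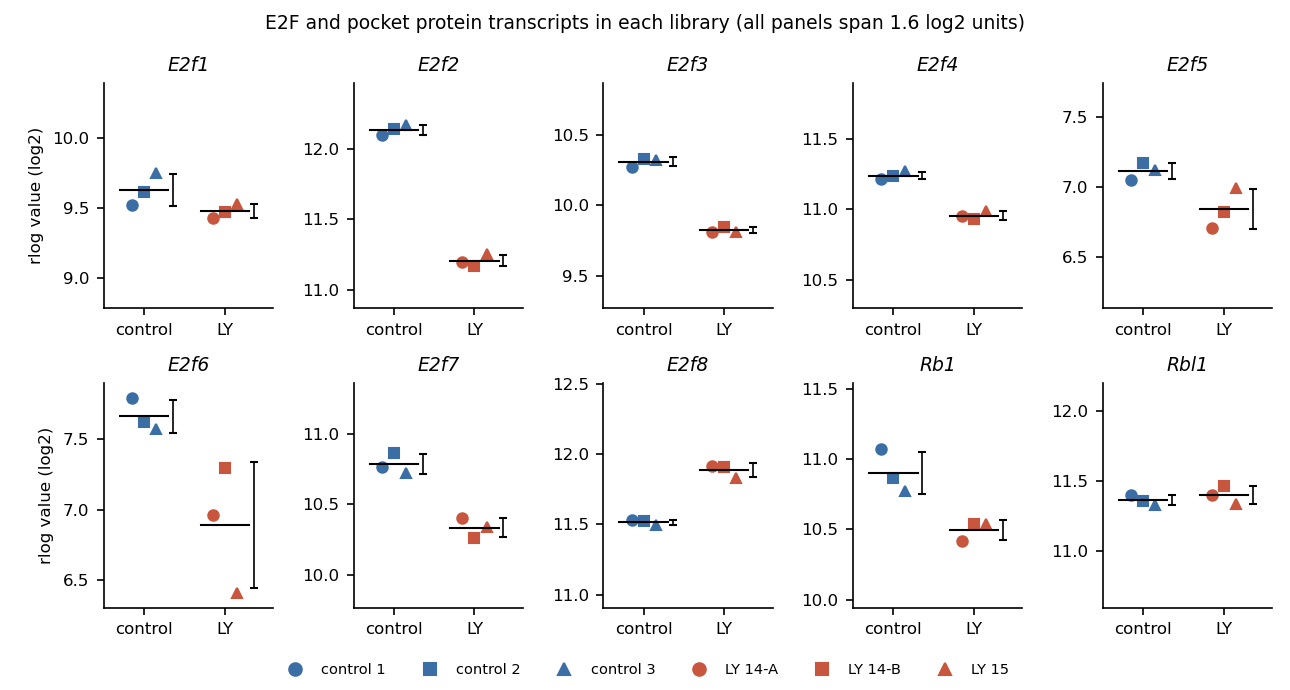
The rlog value (log2 scale) of each of the 10 genes in the 3 control and 3 LY2090314-treated libraries, with a line at the group mean and a bar for the SD; every panel spans the same range. Treated libraries lie wholly under control libraries for *E2f2*, *E2f3*, *E2f4*, *E2f5*, *E2f6*, *E2f7* and *Rb1*, wholly above them for *E2f8*, and overlap them for *E2f1* and *Rbl1*.

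Among the activators, *E2f2* (ENSMUSG00000018983, chromosome 4 of GRCm38, 136172394 to 136196057, plus strand) had rlog values of 12.10, 12.14 and 12.17 in control libraries 1, 2 and 3 and of 11.20, 11.17 and 11.25 in treated libraries 14-A, 14-B and 15. Each group kept within 0.08 log2 units, and every treated library was far under every control library. *E2f2* fell by 0.93 (SE 0.046, adjusted p = 2.46e-06, limma), which is a level 1.90-fold lower on the linear scale. Of the 2918 genes called lower, 268 fell more.

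*E2f3* (ENSMUSG00000016477, chromosome 13, 29906575 to 29986063, minus strand) stood at 10.27, 10.33 and 10.33 in control and at 9.81, 9.85 and 9.81 in treated libraries. The groups were again tight and apart, and the fall was 0.49 (SE 0.047, adjusted p = 9.14e-05, limma). *E2f1* (ENSMUSG00000027490, chromosome 2, 154559407 to 154569892, minus strand) behaved differently. Its values were 9.52, 9.61 and 9.75 in control and 9.43, 9.47 and 9.53 in treated libraries, where the highest treated library was above the lowest control library. The difference was −0.15 (95% interval −0.32 to 0.01, adjusted p = 0.108, limma). Within each library *E2f2* was 2.42 to 2.58 log2 units above *E2f1* in control cells and 1.70 to 1.77 above it in treated cells, a change of the rlog difference by −0.78 (exact two-sided permutation p = 0.10, the smallest that 3 against 3 samples allow).

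*E2f4* and *E2f5* encode the factors that carry pocket proteins to promoters in resting and early G1 cells. *E2f4* (ENSMUSG00000014859, chromosome 8, 105297663 to 105305370, plus strand) was at 11.22, 11.24 and 11.27 in control and at 10.95, 10.93 and 10.99 in treated libraries. It fell by a small but even amount, 0.28 (SE 0.043, adjusted p = 0.00105, limma). *E2f5* (ENSMUSG00000027552, chromosome 3, 14578641 to 14606309, plus strand) was lower expressed, at 7.05, 7.17 and 7.12 in control and 6.71, 6.82 and 6.99 in treated libraries. Its treated libraries were more spread than its control libraries, and although the ranges were apart the difference of −0.27 (SE 0.098, adjusted p = 0.0514, limma) lay just outside the threshold. Without treated library 15 it was −0.35 (adjusted p = 0.017, limma). *E2f5* shares 26 exon bases with *1810022K09Rik* on the opposite strand, which had 9.55 in control and 9.10 in treated cells.

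*E2f6* (ENSMUSG00000057469, chromosome 12, 16810963 to 16839742, plus strand) was the least even of the 10 genes. Control libraries stood at 7.79, 7.63 and 7.57, and treated libraries at 6.96, 7.30 and 6.41, with the lowest value in library 15. The treated SD was 0.45 (n = 3) and the control SD 0.11. *E2f6* fell by 0.77 (SE 0.205, adjusted p = 0.015, limma). Among single libraries left out, only control library 1 cost the call: without it the difference was −0.71 (adjusted p = 0.051, limma). Without library 15 the difference was −0.53, with the call kept.

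The atypical pair moved apart. *E2f7* (ENSMUSG00000020185, chromosome 10, 110745439 to 110787384, plus strand) stood at 10.76, 10.86 and 10.73 in control and at 10.40, 10.26 and 10.34 in treated libraries, and fell by 0.45 (SE 0.058, adjusted p = 0.000451, limma). *E2f8* (ENSMUSG00000046179, chromosome 7, 48866429 to 48881596, minus strand) stood at 11.53, 11.52 and 11.49 in control and at 11.92, 11.91 and 11.83 in treated libraries, and rose by 0.37 (SE 0.046, adjusted p = 0.000336, limma). It was the only one of the 10 genes to rise, and its rise was moderate, since 1832 of the 2860 genes called higher rose more. The rlog value of *E2f8* exceeded that of *E2f7* by 0.66 to 0.77 in control libraries and by 1.49 to 1.65 in treated libraries, a change of 0.82 (exact two-sided permutation p = 0.10). *E2f8* shares 610 exon bases with *Gm2788* on the opposite strand, whose level was 4.66 in control and 4.39 in treated cells. Whether strand was used in the counting is not stated.

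The pocket protein genes also differed from each other. *Rb1* (ENSMUSG00000022105, chromosome 14, 73183673 to 73325822, minus strand) was at 11.07, 10.87 and 10.77 in control and at 10.41, 10.53 and 10.54 in treated libraries, and fell by 0.41 (SE 0.080, adjusted p = 0.00387, limma). The control libraries were spread over 0.30 log2 units, with library 1 highest, and the treated libraries lay under all of them. *Rb1* shares 488 exon bases with *Rcbtb2* and 408 with *Lpar6* on the opposite strand, where *Lpar6* had 7.76 in control and 8.72 in treated cells. *Rbl1* (ENSMUSG00000027641, chromosome 2, 157145893 to 157204534, minus strand) had 11.40, 11.36 and 11.33 in control and 11.40, 11.47 and 11.34 in treated libraries. The ranges overlapped, and treated library 14-B was the highest of the 6. The difference was 0.04 (95% interval −0.08 to 0.15, adjusted p = 0.558, limma), an interval that leaves out a fall of the size seen for *Rb1*. Within each library *Rbl1* exceeded *Rb1* by 0.33 to 0.56 in control and by 0.80 to 0.99 in treated libraries, a change of 0.45 (exact two-sided permutation p = 0.10).

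**Figure D2:**
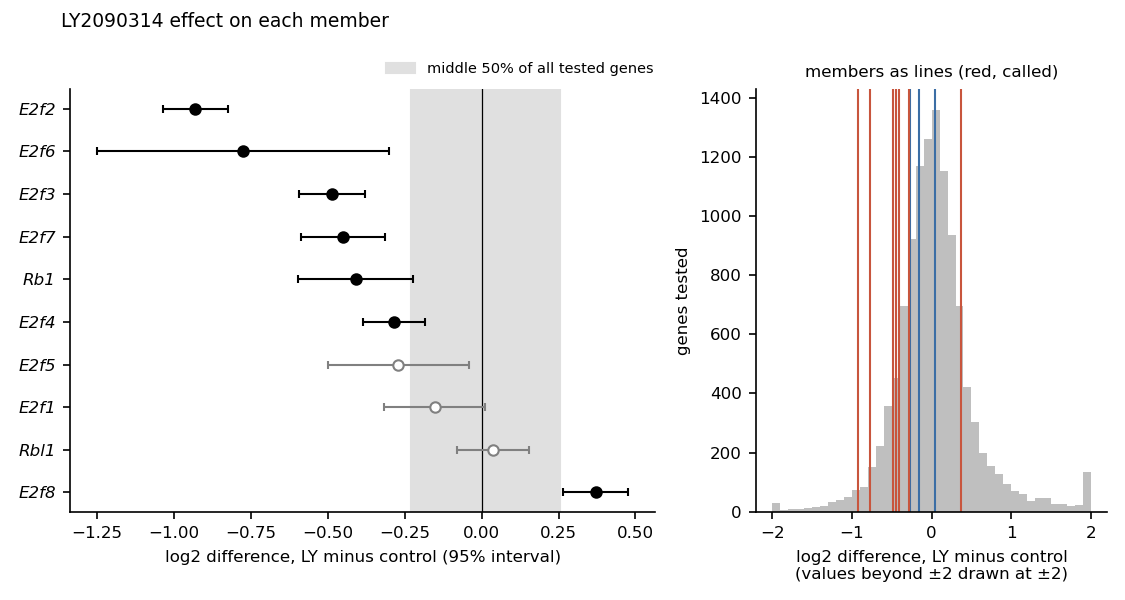
Left, the log2 difference of each gene (treated minus control, with its 95% interval; filled where the adjusted p was under 0.05) over a band for the middle 50% of all genes tested. Right, the distribution of the differences of all 11536 genes with the 10 genes as lines. *E2f2* at −0.93 lies farthest to the left and *E2f8* at 0.37 farthest to the right.

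To compare levels between genes, the log2 of the exon length in kilobases was subtracted from each rlog value. On this level per kilobase, *E2f4* (9.95 ± 0.027, SD, n = 3) and *E2f2* (9.85 ± 0.036) led in control cells, above 92.4% and 91.6% of the genes compared. *E2f8* (9.07), *Rbl1* (8.78), *Rb1* (8.31), *E2f1* (7.97), *E2f3* (7.87), *E2f7* (7.61) and *E2f5* (6.28) followed, and *E2f6* was last at 5.16 ± 0.115, above 27.3% of genes. Neighbours in this order did not overlap, except *E2f1* and *E2f3*. In treated cells *E2f4* stayed first at 9.66, *E2f8* came next at 9.44, followed by *E2f2* at 8.92 and *Rbl1* at 8.82. The other 6 genes kept their order, with overlap between *Rb1* and *E2f1* only. If lengths were taken from the longest transcript, *E2f8* and *E2f4*, which then overlapped, led in treated cells and *E2f2* lay under *Rbl1*. With these lengths *E2f7* lay above *E2f3* in both groups, and in control cells also above *E2f1*, with overlap.

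**Figure D3:**
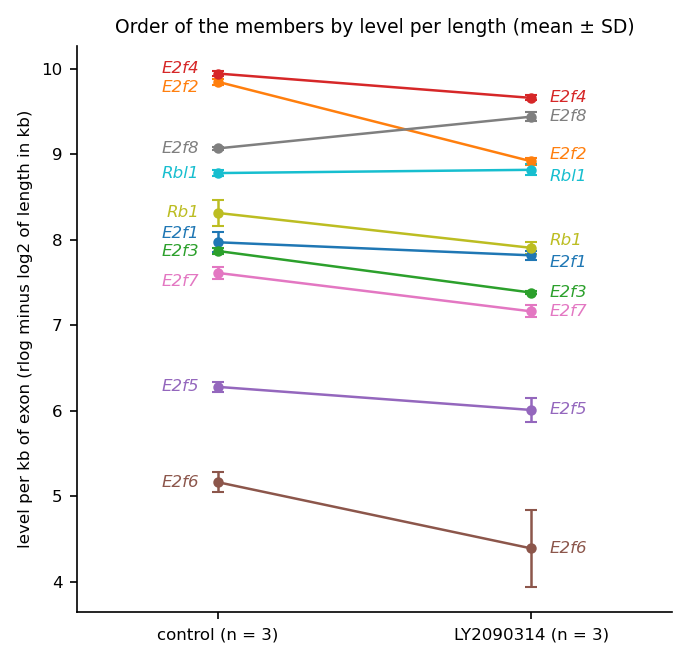
Mean level per kilobase of exon (rlog value minus log2 of the length in kilobases) with its SD over 3 libraries, for control cells on the left and LY2090314-treated cells on the right, joined by gene. The lines of *E2f2* and *E2f8* cross, while *E2f4* stays at the top and *E2f6* at the bottom.

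On the linear scale per length, these levels give the make-up of each set of transcripts. *E2f2* made up 65.5% ± 0.58 (SD, n = 3) of the activator transcripts in control cells and 55.2% ± 0.66 in treated cells, whereas the share of *E2f1*, whose own level was not called, went from 17.8% to 25.7% and that of *E2f3* from 16.6% to 19.0%. The 3 activators together were 43.4% ± 0.72 of the transcripts of all 8 E2F genes in control and 33.6% ± 0.59 in treated cells. The atypical pair went from 22.6% ± 0.72 to 32.1% ± 1.05 of the same total, and *E2f8* from 73.3% to 82.9% of the pair. *Rbl1* was 58.0% ± 1.96 of the transcripts of *Rb1* and *Rbl1* in control and 65.3% ± 1.52 in treated cells. For each of these shares the 3 treated libraries were apart from the 3 control libraries. Shares are bound to add up, so each describes the balance and not the change of one gene. With lengths of the longest transcript, the activators went from 37.5% to 28.4% of all E2F transcripts and the atypical pair from 28.2% to 38.2%. Which share was larger in treated cells thus depended on the length used. The share of *E2f4*, 30.4% and 31.0%, had no stable direction, since lengths of the longest transcript gave 30.6% and 30.2%.

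Promoter sequence was available from RefSeq (GRCm38.p6) for 7 of the 10 genes, as 9 windows of 300 bases, from 250 before to 50 after a start site. Letters of 4 E2F words (TTTCCCGC, TTTCGCGC, TTTGCCGC and TTTGGCGC, on both strands) were present in 4 of the 9 windows, against 2.26% of 32851 windows of all genes. The 4 genes with a match were *E2f2*, *E2f3*, *E2f7* and *Rbl1*, of which the first 3 fell and *Rbl1* was not called. Near matches were not counted, and *E2f8*, the one gene that rose, had no exact E2F word in its window. The windows of *E2f6*, which fell, and of *E2f1*, which was not called, had none either. The *E2f8* window held the word of the cell cycle homology region (CHR, TTTGAA or TTCGAA). Through this element the MuvB complex binds genes of late cell cycle. CHR words were in 3 of the 9 windows and in 19.2% of all windows. The upstream sequences of the 4 genes with an E2F word and of *E2f8* are shown so that the words can be read in place. They run 5′ to 3′ on the gene's strand and end at the base before the start site, with the E2F word in capitals for *E2f3*, *E2f7* and *Rbl1* and the CHR word for *E2f8*. A word on the opposite strand reads as its reverse complement. For *E2f2* the word lies after the RefSeq start site and only the 30 bases around it are given. In order, the positions are chr4:136172294-136172323 (plus strand), chr13:29986064-29986313 (minus), chr10:110745189-110745438 (plus), chr2:157204535-157204784 (minus) and chr7:48881597-48881846 (minus).
E2f2: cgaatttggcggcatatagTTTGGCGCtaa
E2f3: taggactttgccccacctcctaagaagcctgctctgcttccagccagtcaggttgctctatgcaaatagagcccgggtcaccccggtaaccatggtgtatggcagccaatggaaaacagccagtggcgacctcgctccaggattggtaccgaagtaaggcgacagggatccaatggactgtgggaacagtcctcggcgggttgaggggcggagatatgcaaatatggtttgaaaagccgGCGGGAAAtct
E2f7: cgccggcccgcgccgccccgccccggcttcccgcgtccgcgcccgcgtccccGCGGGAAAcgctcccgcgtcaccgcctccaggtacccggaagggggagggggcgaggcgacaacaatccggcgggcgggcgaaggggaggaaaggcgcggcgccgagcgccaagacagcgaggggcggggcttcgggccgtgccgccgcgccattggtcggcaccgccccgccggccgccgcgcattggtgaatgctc
Rbl1: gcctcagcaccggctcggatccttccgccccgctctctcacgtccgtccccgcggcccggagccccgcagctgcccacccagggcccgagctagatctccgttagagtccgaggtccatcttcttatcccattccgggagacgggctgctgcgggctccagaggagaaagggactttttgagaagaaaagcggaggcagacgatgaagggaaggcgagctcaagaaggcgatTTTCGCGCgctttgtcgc
E2f8: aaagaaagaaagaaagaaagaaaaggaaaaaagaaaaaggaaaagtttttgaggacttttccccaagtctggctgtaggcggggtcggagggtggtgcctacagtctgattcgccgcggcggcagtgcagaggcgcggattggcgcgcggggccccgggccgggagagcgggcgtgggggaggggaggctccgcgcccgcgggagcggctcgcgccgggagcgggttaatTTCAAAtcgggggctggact

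Counted to the first base of the word along the gene's strand, the E2F word lay 11 bases before the start in *E2f3* and 198 before it in *E2f7*, both on the opposite strand, 18 before it in *Rbl1* and 40 after it in *E2f2*. The CHR word of *E2f8* lay 20 bases before the start, on the opposite strand, and *E2f3* and the second start of *E2f2* held one 23 and 31 bases before the start. Of the other words searched, few matches were found. The E-box CACGTG was in 1 window (7.15% of all) and the Ikaros word TGGGAA in 1 (25.6% of all). The TCF/LEF core CTTTGA was in none (16.0% of all), where the letters CTTTGAA would count both as TCF/LEF and as CHR. The study gives the Ikaros core as the shorter GGGAA, which was not searched for here. Those letters also lie within GCGGGAAA, the opposite strand of the E2F word TTTCCCGC. A match of letters is a description and does not show binding. For *E2f1* the RefSeq start lies 466 bases inside the first GENCODE exon, so its window covers no upstream sequence of the longer transcript. For *E2f2* the RefSeq start beside the E2F word lies 120 bases before the GENCODE start, so the word lies upstream of the GENCODE start.

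**Figure D4:**
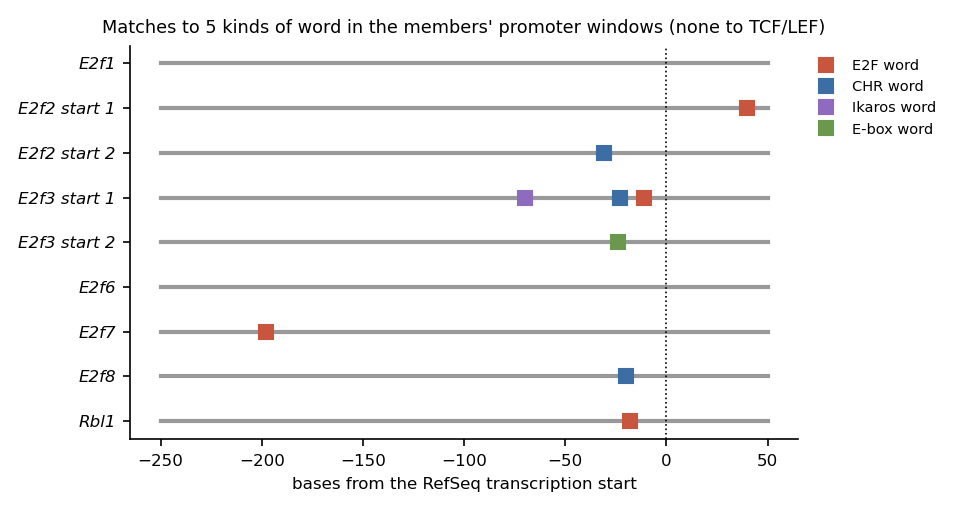
Position of each word in the RefSeq windows of the 7 genes, in bases from the start site, with a row for each start. E2F words lie close to the start of *E2f2*, *E2f3* and *Rbl1* and farther upstream in *E2f7*, and *E2f8* holds a CHR word only.

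The partners of the E2F factors were described by lists, read against the median of 0.01 and the called shares of all genes. E2F1 to E2F6 bind DNA as dimers with a DP protein. *Tfdp2* stood at 10.39, 10.46 and 10.12 in control and at 9.34, 9.39 and 9.52 in treated libraries, a fall by 0.91 (SE 0.094, adjusted p = 0.000136, limma). *Tfdp1* fell by less, 0.25 (adjusted p = 0.0134, limma), and lost the call without library 14-B (adjusted p = 0.0503, limma). *Rbl2*, the gene of the pocket protein p130, had 9.76 ± 0.12 (SD, n = 3) in control and 9.95 ± 0.083 in treated cells (difference 0.19, adjusted p = 0.074, limma). It passed the threshold in 1 of 15 alternatives, without control library 1 (adjusted p = 0.0406, limma). Without library 14-B the adjusted p was 0.22 (limma). In the DREAM complex, which joins p107 or p130 and E2F4 to the MuvB core, *Lin52* and *Lin9* rose by 0.42 and 0.28, and the other 3 core genes were not called. *Mybl2*, the gene of B-Myb, which replaces the repressors on MuvB in S phase and is itself an E2F target, fell by 1.04 from 11.81 ± 0.10 to 10.77 ± 0.022 (SD, n = 3; adjusted p = 5.24e-06, limma).

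Upstream of the pocket proteins, 2 of 9 genes of G1 cyclins, their kinases and the phosphatase *Cdc25a* rose, 2 fell and 5 were not called, with a median of 0.04. The D-type cyclins, which start the phosphorylation of pRB, went in opposite directions. *Ccnd3* stood at 14.47, 14.53 and 14.74 in control and at 13.47, 13.42 and 13.59 in treated libraries and fell by 1.09 (adjusted p = 3.19e-05, limma), while *Ccnd2* stood at 14.86, 14.81 and 14.80 and at 15.69, 15.73 and 15.82 and rose by 0.92 (adjusted p = 3.04e-05, limma). *Cdk6*, a kinase partner of both, rose by 0.65, and *Ccne2*, an E-type cyclin and E2F target, fell by 0.76. Of 7 inhibitors of these kinases, 6 passed the lower limit, and 5 of them rose, with a median of 0.44. *Cdkn2a*, which encodes p16 and ARF, rose by 1.14 (8.10 ± 0.045 to 9.25 ± 0.039, SD, n = 3) and *Cdkn1a*, the gene of p21, by 0.81. *Cdkn1c* was under the limit in all 6 libraries.

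Downstream, 31 of 35 E2F targets of replication and nucleotide supply fell, 2 rose and 2 were not called, with a median of −0.45. The falls ran from 0.16 to 0.76. *Lig1*, the DNA ligase that joins Okazaki fragments, fell by 0.76 (12.97 ± 0.018 to 12.22 ± 0.12, SD, n = 3), and *Pola1*, the catalytic subunit of DNA polymerase α, by 0.69. The rises were those of *Ezh2*, a Polycomb methyltransferase, by 0.84, and *Msh6*, a mismatch repair gene, by 0.14. Of 36 promoter windows of this list, 14 held an E2F word, which is no finding, since the list was put together as known E2F targets. Of 20 genes of G2 and mitosis, 13 fell, 1 rose and 6 were not called, with a median of −0.22. Without control library 2 or treated library 14-A, 9 of the 20 were called in place of 14. *Ccna2*, the gene of cyclin A2, fell by 0.66, *Mki67*, the proliferation marker Ki-67, by 0.49, and *Aurka* rose by 0.15. This list was put together as genes known for CHR promoters, so the CHR words in 12 of its 15 windows are no finding. The 31 and 13 falls compare with 25.3% of all genes.

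Of the other lists, those of E2F6 partners and of cell death targets showed less common direction. In the Polycomb complex that contains E2F6, 2 of 10 partner genes rose and 4 fell, with a median of −0.19. *Rybp* rose by 0.83 and *Mga*, which binds E-box-like sites with MAX, by 0.39, and *Wdr5* and *Cbx3* fell by 0.54 and 0.38. Of 5 germline genes known to be silenced through E2F6, only *Stag3*, a meiotic cohesin subunit, passed the lower limit, and it did so through the treated group, at 2.68, 2.67 and 2.66 in control and 3.62, 3.60 and 3.72 in treated libraries. The other 4 were at or under 0 in all libraries. Of 9 targets through which E2F1 can promote cell death, 8 passed the limit. Of these, 3 rose and 4 were not called, with a median of 0.10. *Pmaip1* and *Trp53inp1*, which p53 also activates, rose by 1.28 and 1.26. The 3 genes of ubiquitin ligase subunits that act on E2F factors, *Ccnf*, *Skp2* and *Fzr1*, fell by 0.51, 0.28 and 0.24.

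**Figure D5:**
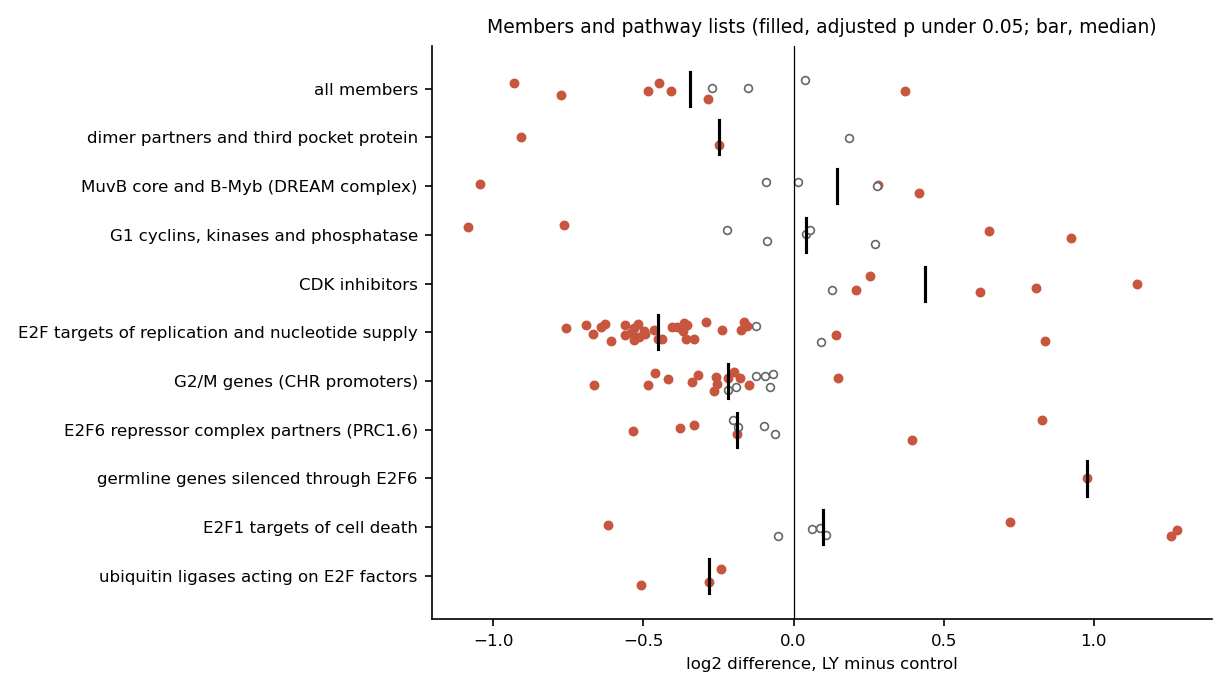
The log2 difference (treated minus control) of each tested gene of the 10 E2F and pocket protein genes and of 10 related lists, filled where the adjusted p was under 0.05, with a bar at the median of the list. The replication list lies mostly left of 0 with a median of −0.45, and the kinase inhibitors lie right of 0 with a median of 0.44.

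Over the 6 libraries, the profiles most like that of *E2f2*, by Euclidean distance between values centred on each gene's mean among 11535 other genes, were those of *Cad*, an enzyme of pyrimidine synthesis (distance 0.038, difference −0.95), *Isyna1* (0.056, −0.94) and *Cd79b*, a chain of the B cell receptor (0.078, −0.94). For *E2f8* they were *Ip6k2* (distance 0.050, difference 0.35), *Usp7*, a deubiquitinase (0.053, 0.34), and *Vhl* (0.056, 0.41). With 2 groups of 3 libraries, such a distance is set mostly by the size of the difference between the groups.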

How the data were processed

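The authors deposited 1 table of rlog values, which are on a log2 scale, for 41444 genes. The submitters' notes and the study's methods name a stranded library of polyadenylated RNA, FastQC 0.11.9, Salmon, STAR, SAMtools 1.7, Picard 2.23.8 and DESeq2 1.30.1, with GRCm38 and GENCODE vM24. Which samples entered the rlog transformation, its options and whether counting used strand are not given in the sources used here. No counts were used, so depth is unknown and no counting interval or count model applies.

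Columns were matched to groups by name. Of 12 columns, 3 matched ERT2 control cells and 3 treated ERT2 cells, and 6 that combine Cre and LY in their names could not be assigned and were not used. Genes with a mean of at least 3 over the 6 samples (11536) were fitted with limma 3.58.1 in R 4.3.3 (mean-variance trend, Benjamini-Hochberg adjustment over all genes tested, threshold 0.05). The script was tested on simulated data. Single within-library differences had an exact two-sided permutation test, with a smallest possible p of 0.10. Counts of a list stand beside those of all genes, with no set test. Symbols, positions and lengths came from GENCODE vM21 (GRCm38) and promoters from RefSeq. Protein sequence was not analysed here.

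The 10 genes and all lists were chosen with earlier results of these data known. The text names all 10, of each list the 2 largest called rises and falls (all genes of lists of 3), the 3 nearest profiles of the genes with the largest fall and rise, and *Axin2*. One gene that this rule names is not reported here. Overlapping genes and marker genes are named beside the results they touch, after their values were seen. The alternatives were another eBayes setting, other limits and thresholds, other scalings, each library left out, and libraries 14-A and 14-B averaged.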

Additional observations from a re-analysis of the deposited data

How the results depend on the processing

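No value of the 10 genes, *Tfdp1*, *Tfdp2* or *Rbl2* changed sign under any alternative run, and of 150 values of the 10 genes 134 kept their side of the threshold, 10 lost the call and 6 gained it. With a log2 difference of at least 1 required as well, 693 genes were called and 0 of the 10 genes, 0 of the DP and *Rbl2* list, 1 of MuvB with *Mybl2*, 1 of the G1 list, 1 of the kinase inhibitors, 0 of the replication targets, 0 of the G2/M genes, 0 of the E2F6 partners, 0 of the germline genes, 2 of the death targets and 0 of the ligases. At an adjusted p under 0.01, 1 of the DP list, 3 kinase inhibitors and 9 G2/M genes were called, and with a mean of at least 5, 0 germline genes, since *Stag3* was then not tested. With each library left out, 4741 to 6225 genes, 6 to 8 of the 10 genes, 1 to 3 of the DP list and 9 to 14 G2/M genes were called (1 without library 14-B, and 9 without library 2 or 14-A). *E2f6* also lost its call with no lower limit (adjusted p = 0.0584, limma), and *E2f5* gained one in 6 settings (adjusted p 0.017 to 0.158 over all settings, limma). Quantile normalization shifted the median difference of all genes to −0.04 and the share of calls that were higher from 49.5% to 43.4%, and a log2 difference of at least 1 raised that share to 69.0%. With 14-A and 14-B averaged, 4940 genes and 7 of the 10 were called. No paired analysis was possible because the numbers in the column names cannot be tied to those in the titles. Without counts, the depth behind each value is unknown, and values of low genes such as *E2f6* and *Stag3* are the most shrunken.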
